A study of Mus musculus with 18 samples.

Results

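Cd69, Rgs1, Rgs2 and Rgs16 were followed through every RNA library and through the map of protein-bound 3′ UTR sites in mouse T cells. The 4 genes were taken by name from the 43432 genes of the RNA table, and the 31 peaks named for them were taken from the 27729 peaks of the map. All 4 transcripts were higher after stimulation in both CD8 and Th2 cells, by 7.17-fold for Cd69 and by 47.6-fold for Rgs16 as means of the cell types. With actinomycin D the stimulated levels were far lower, and the 4 genes separated: Rgs1 and Rgs16 had 1.91 to 5.24% of the untreated stimulated level, Cd69 14.1 and 14.5%, and Rgs2 7.17% in CD8 cells and 35.6% in Th2 cells.

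CD69 is a membrane protein of the C-type lectin family that appears early on activated lymphocytes. It binds the receptor S1PR1 and takes it off the cell surface, which holds the cell in lymphoid tissue by blocking the exit signal of sphingosine 1-phosphate. RGS proteins (regulators of G protein signalling) speed the hydrolysis of GTP by G alpha subunits, which ends the signal of G protein-coupled receptors such as chemokine receptors. RGS1 and RGS16 act on Gi and Gq subunits, and RGS2 acts mainly on Gq.

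The study examined T cells of C57BL/6 mice (C57BL/6 J in its methods), cultured from pooled animals. CD8 cells were grown with IL-12 and IL-2, and Th2 cells (CD4 cells that make type 2 cytokines) with IL-4, an antibody to interferon gamma and IL-2. In the last 4 h before harvest cells were stimulated with PMA and ionomycin, a drug pair that imitates T cell receptor signals, or were rested in fresh medium. RNA-seq gave 8 libraries, 1 each for stimulated and resting cells of both types, with and without actinomycin D, an inhibitor of RNA synthesis. GCLiPP, which sequences RNA fragments held by any protein after ultraviolet crosslinking, gave 4 libraries from CD8 cells and 6 from Th2 cells, pooled into 1 peak list. By the study's methods the drug was added after the 4 h of stimulation and these cells were lysed in Trizol LS, whereas RNA without the drug came from the oligo-dT eluate of crosslinked cells. The sample records give the same ultraviolet dose for all libraries, so whether the preparations differed is not settled. How many hours the drug acted before RNA-seq, and how resting cells were timed, is not stated in the sources used here. The drug, the later harvest and any difference in preparation cannot be told apart. All cells were activated for days before they were rested, so resting does not mean naive.

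RNA values are normalised reads: gene reads divided by 1 factor per library. The libraries held 24154849 to 31042504 gene reads. The Th2 marker list held 0.00249 to 0.00323% of the reads in CD8 libraries and 0.189 to 0.444% in Th2 libraries. The CD8 list held 1.10 to 1.82% and 0.476 to 0.714%, with Gzmb its largest gene in every library. In the test described below 6 of its 7 genes were called higher in CD8 cells and Gzma lower (log2 -2.62), where 36.8% of all genes were called. Cd8a stood at 1331 to 2401 normalised reads in Th2 libraries and at 10516 to 15750 in CD8 libraries. Ribosomal protein genes held 2.70 to 3.51% of the values with actinomycin D and 1.75 to 2.05% without. With 1 library per condition, matched libraries of the other cell type stand in for replicates, and p-values measure only the spread between them. Differences between groups of libraries were tested with limma on log2(value + 1) over the 10972 genes that averaged 50 or more, and were called at a Benjamini-Hochberg adjusted p under 0.05. Fold changes are on that scale.

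Cd69 (ENSMUSG00000030156) lies on chromosome 6, 129267325 to 129275436, minus strand (mm10). Rgs1 (ENSMUSG00000026358), Rgs2 (ENSMUSG00000026360) and Rgs16 (ENSMUSG00000026475) lie on chromosome 1, at 144242296 to 144249242 on the minus strand, 143999338 to 144004161 on the minus strand and 153740349 to 153745468 on the plus strand. The 3′ UTRs of their main annotated transcripts (GENCODE M21) are 936 bases long for Cd69, 3006 for Rgs1, 2342 for Rgs2 and 1613 for Rgs16. Peaks are windows of 70 bases called in 3′ UTRs, each with a score from the authors whose meaning no source states. A peak also had to pass a share of the highest read depth in its own 3′ UTR, so a stretch without peaks need not be free of reads. The score was used only to rank peaks within the list, where the median is 24 and the range 13 to 22514.

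Rgs1, also the most abundant of the 4 transcripts, had the peak with the highest score. Its 9 peaks scored 19 to 679, and the highest one, centred 577 bases after the stop codon, ranked 109 in the list. A second peak overlapping it scored 350 (rank 305). By the sum of its scores (1802) Rgs1 ranked 66 among the 6689 genes with a peak, against a median sum of 68 over those genes. The 2 overlapping peaks share a polyadenylation hexamer, AAUAAA, 603 bases after the stop codon, and a variant hexamer, AUUAAA, at 581 bases. All 9 Rgs1 peaks were centred within 613 bases of the stop codon, and the last 2359 bases of the annotated UTR held none. Shorter Rgs1 transcripts that GENCODE classes as targets of nonsense-mediated decay end at 144244673, inside the peak scoring 350. Another AUUAAA lies at 690 bases, outside the peaks. The end of its window below is the annotated end of a further shorter Rgs1 transcript of that class (144244595).

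Rgs16 had 12 peaks scoring 13 to 283, centred 112 to 1509 bases after the stop codon. They covered 48.2% of its 3′ UTR. The highest, at 647 bases, ranked 430 and held 44.4% of the summed score of the gene. The Rgs16 peak nearest the 3′ end (score 34) held the AU-rich heptamer UAUUUAU in 2 overlapping copies. Of the 12 peaks, 3 carried a cd8 prefix in the authors' names (scores 13, 14 and 15). The files do not say what the prefixes stand for, and 0.866% of all peaks carry cd8 and 0.0469% rapidcd8.

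Cd69 had 7 peaks with low scores (15 to 42), which covered 52.4% of its short 3′ UTR. The highest, at 825 bases, ranked 6353 and holds the first of the 2 AAUAAA hexamers of that UTR. Its AU-rich pentamers, AUUUA, at 312 and 499 bases lay outside all peaks, the first within a heptamer UAUUUAU. Rgs2 had 3 peaks, with scores of 13, 74 and 18 at 14, 561 and 608 bases, and 70.5% of the summed score in the peak at 561. No Rgs2 peak lay in the last 1700 bases of its annotated UTR, and the first AAUAAA begins 658 bases after the stop codon, just past the last peak.

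These stretches show the hexamers and AU-rich sequences named above, as RNA read 5′ to 3′ in the mm10 transcripts, with the motif in capitals. They are shown because they sit in the highest peaks of Rgs1 and Cd69, at the end of that shorter Rgs1 transcript, just past the last Rgs2 peak, or at AU-rich motifs inside (Rgs1, Rgs16) and outside (Cd69) the peaks.
Rgs1, chr1:144244682-144244711, minus strand, in the peaks scoring 679 and 350: cauuguaucaauAAUAAAuguggacacuau
Rgs1, chr1:144244595-144244624, minus strand, outside peaks: uuuuuugcucugAUUAAAaaaaauugaaug
Rgs1, chr1:144244754-144244783, minus strand, in the peak scoring 202: aagacauuuauauAUUUAaccuaacuauuu
Cd69, chr6:129267401-129267430, minus strand, in the peak scoring 42: uuucccaugugcAAUAAAguguuuauauau
Cd69, chr6:129267933-129267962, minus strand, outside peaks: cucuagaguuacUAUUUAUugccgaaugac
Rgs2, chr1:144001005-144001034, minus strand, just past its last peak: uugaauacuuuuAAUAAAuuuauuuugcua
Rgs16, chr1:153745325-153745354, plus strand, in the peak scoring 34: ccacuguguuaaUAUUUAUuuauuguuaac

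Motifs were searched on the sense strand only. AUUUA stood in 3 of the 31 peaks of these genes (2 of Rgs1, 1 of Rgs16) and in 7.93% of the 25741 peaks with a transcript sequence. UAUUUAU, which contains AUUUA, stood in 1 of the 31 and in 1.32% of all. AAUAAA stood in 3 of the 31 (Cd69 once, Rgs1 in the overlapping pair) and in 6.57% of all, and AUUAAA in 2 (the same Rgs1 pair) and in 3% of all. The Pumilio motif UGUANAUA stood in none of the 31 and in 1.7% of all. These are letter matches and not measured sites. The list pools all libraries, so no peak was compared between conditions.

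**Figure D1:**
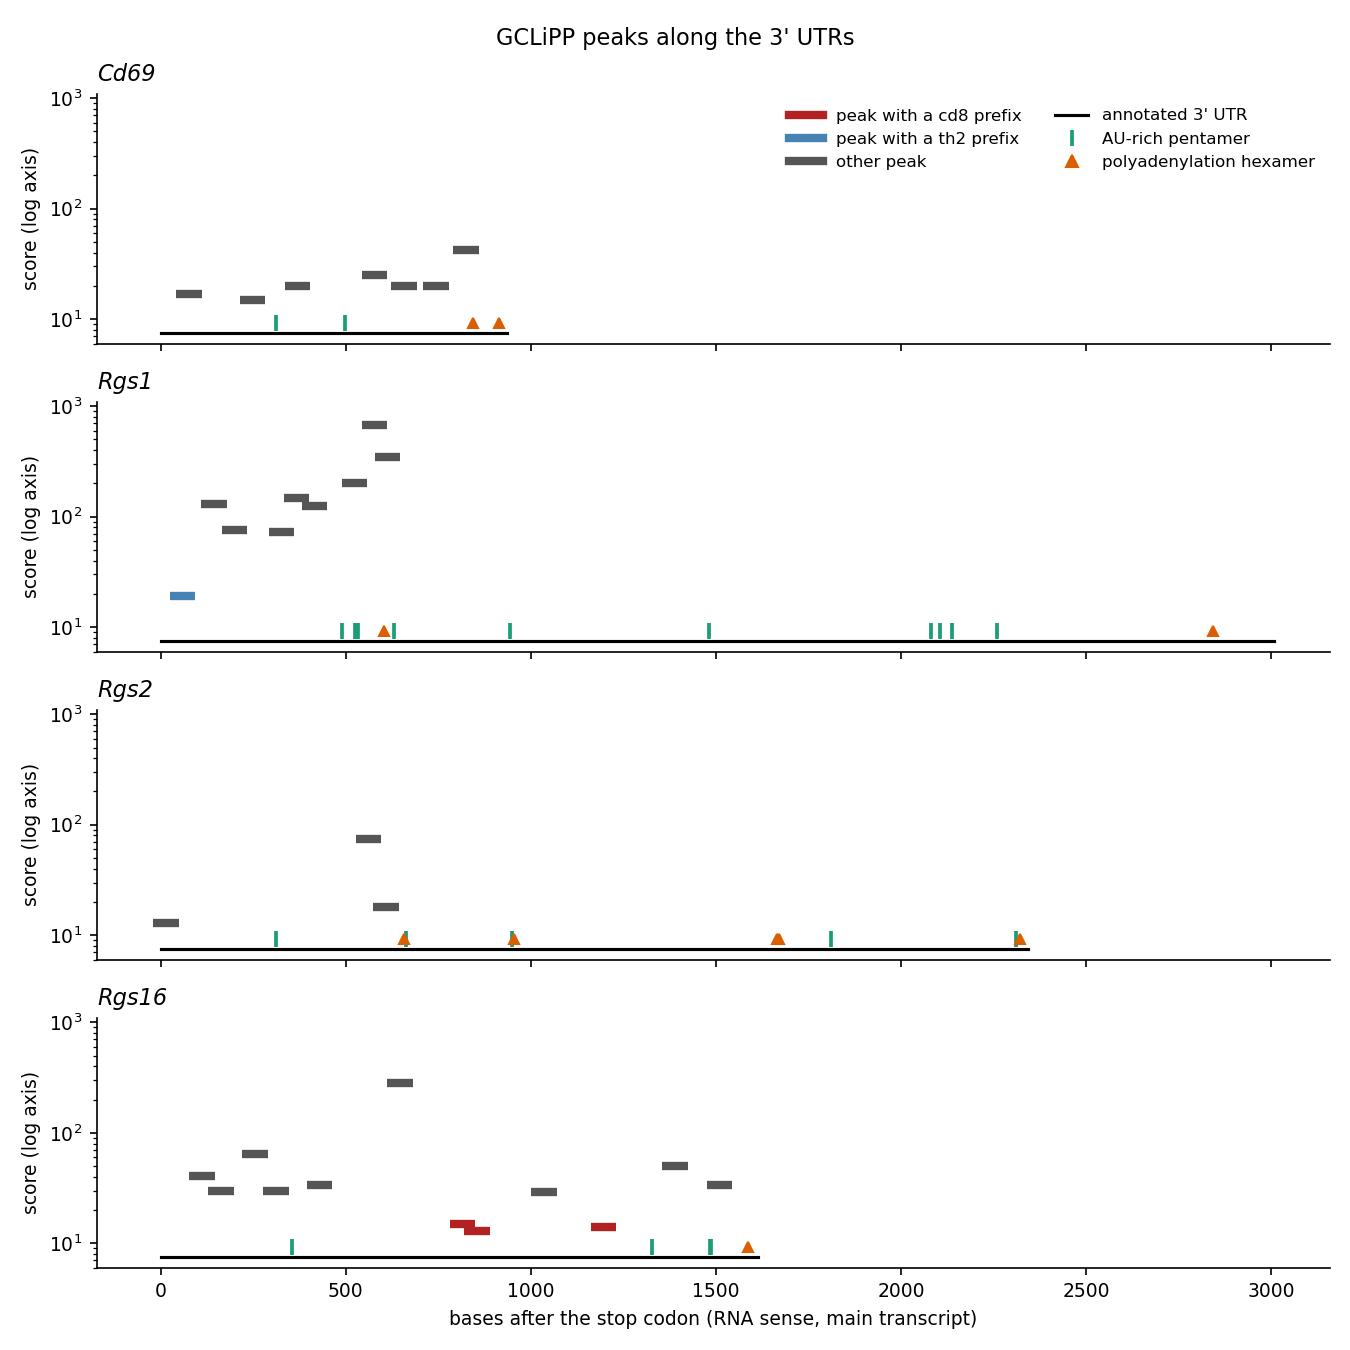
GCLiPP peaks of Cd69, Rgs1, Rgs2 and Rgs16 as bars of 70 bases placed by their distance after the stop codon (horizontal axis, bases) and by the authors' score (vertical axis, log scale), above a line for the annotated 3′ UTR with AUUUA (ticks) and AAUAAA (triangles). Rgs1 peaks are centred within 613 bases of the stop codon and reach a score of 679, whereas Cd69 peaks stay at 42 or below. Rgs16 peaks are centred up to 1509 bases after the stop codon.

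Stimulation without the drug was compared first. Cd69 stood at 4318 normalised reads in stimulated and 711 in resting CD8 cells, and at 4287 in stimulated and 505 in resting Th2 cells. The stimulated libraries of both cell types lay far above both resting ones, by 6.07-fold in CD8 and 8.5-fold in Th2 cells. The mean log2 change of Cd69 was 2.84 ± 0.21 (SE), which passed the test (limma adjusted p = 0.0005345).

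Rgs1 was the most abundant of the 4 transcripts. It stood at 48113 normalised reads in stimulated and 4066 in resting CD8 cells, and at 38081 in stimulated and 6992 in resting Th2 cells. The ratio was 11.8 in CD8 and 5.45 in Th2 cells, and Rgs1 rose by 3.00 ± 0.29 (SE, log2; limma adjusted p = 0.00123). Stimulated CD8 cells gave 0.168% of all their gene reads to Rgs1. Per kilobase of the main transcript the order in that library was Rgs1 with 12530 normalised reads, Rgs16 with 7911, Cd69 with 2560 and Rgs2 with 889.9. For Rgs1 this used the annotated length of 3841 bases, and the shorter transcripts were not counted apart.

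Rgs16 changed the most. It stood at 18504 normalised reads in stimulated and 504 in resting CD8 cells, and at 10783 in stimulated and 174 in resting Th2 cells. The ratio was 36.7 in CD8 and 62.1 in Th2 cells, and Rgs16 rose by 5.57 ± 0.46 (SE, log2; limma adjusted p = 0.000771). By this change it ranked 15 among the 10972 genes. The antisense gene Gm28513 overlaps its 3′ end, but was at 0.92 to 7.11 normalised reads in all libraries.

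Rgs2 stood at 2688 normalised reads in stimulated and 138 in resting CD8 cells, and at 2227 in stimulated and 348 in resting Th2 cells. The stimulated levels were closer than the resting ones, so the ratio was 19.5 in CD8 and 6.40 in Th2 cells. Rgs2 rose by 3.47 ± 0.63 (SE, log2; limma adjusted p = 0.0088). Its call was lost without the resting Th2 library (3.36, limma adjusted p = 0.0697) or the resting CD8 library (3.59, limma adjusted p = 0.051), and the change was 2.29 without the stimulated CD8 and 4.66 without the stimulated Th2 library.

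Each of the 4 genes was at least 5-fold higher in both cell types, as were 1.9% of the 10972 genes in CD8 and 1.71% in Th2 cells. All 4 were called higher in the test, where 14.7% of the 10972 genes tested were called higher and 28.1% in either direction. Their median change was 3.24 on the log2 scale, and that of all genes 0.0338. Scaling to ribosomal protein genes moved the median of all genes by -0.37, and all 4 were still called (2.47 to 5.20). The stimulation change was also compared between CD8 and Th2 cells, over all 8 libraries, with and without the drug together. The difference was -0.59 ± 0.53 for Cd69, 0.11 ± 0.92 for Rgs1, 1.24 ± 1.39 for Rgs2 and -0.40 ± 1.34 for Rgs16 (log2, SE). None of the 4 differences was called (limma adjusted p = 0.9998 each). Only for Rgs1 did the order of the cell types reverse with the drug. Its log2 change was 3.56 in CD8 and 2.45 in Th2 cells without the drug, and 0.56 and 1.47 with it. The limma fit of this difference called 0 of all genes (0%), with 27 at an unadjusted p under 0.05. It had no term for stimulation by actinomycin D, so that interaction entered its errors, which could hide differences of several fold. With the same terms edgeR and DESeq2 called 0 as well.

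**Figure D2:**
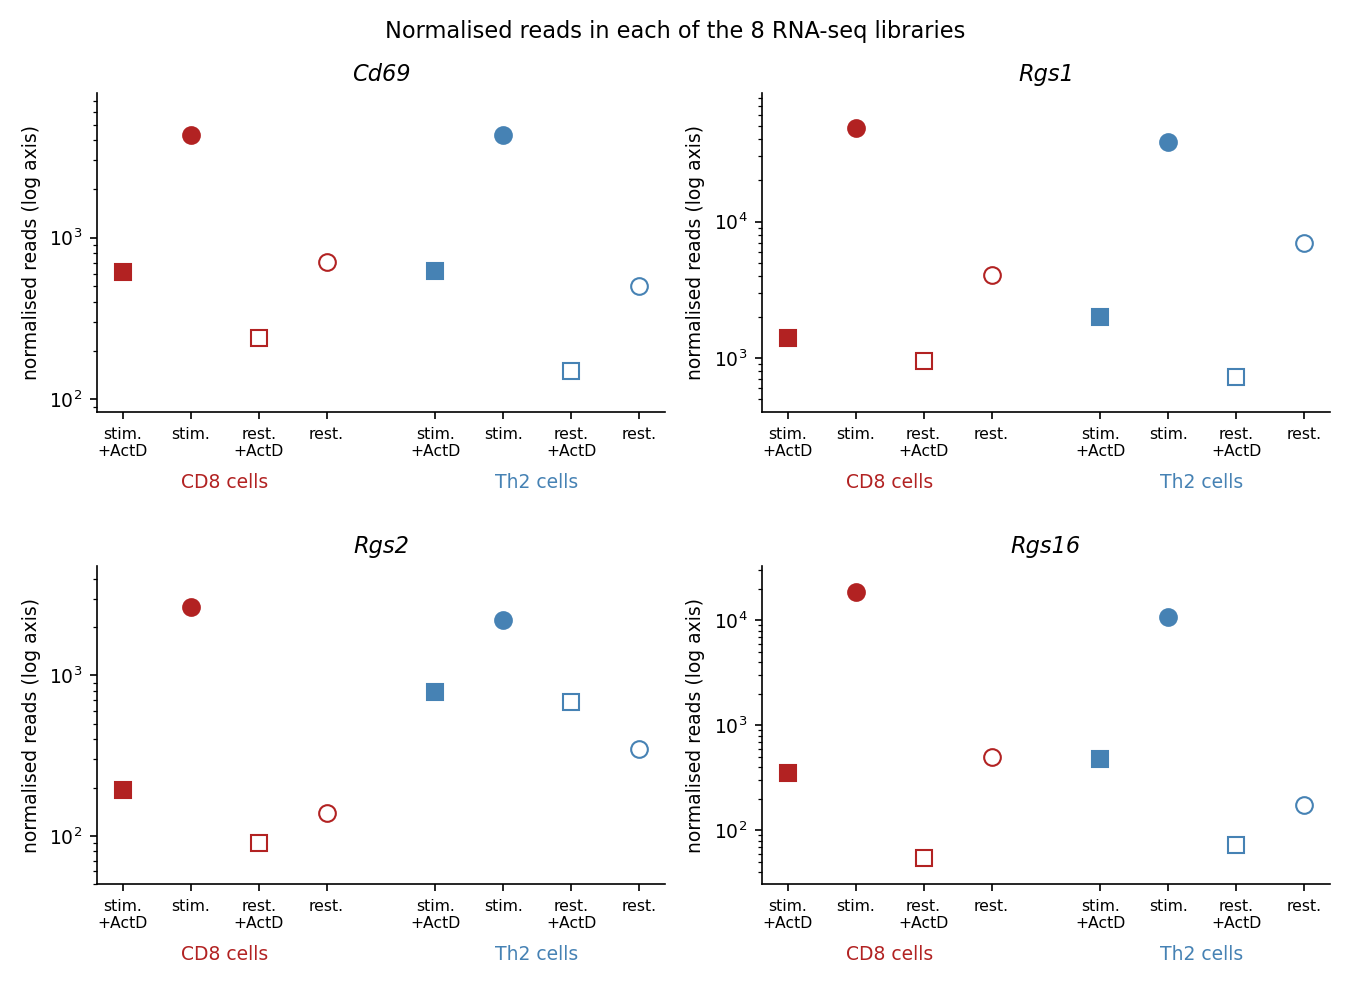
Normalised reads (log axis) of the 4 genes in each of the 8 RNA-seq libraries, CD8 left and Th2 right, with filled symbols for stimulated cells, open symbols for resting cells and squares for actinomycin D. Stimulated cells without the drug give the highest value for every gene in both cell types, and for Rgs2 the resting Th2 library with the drug (679.6) lies above the one without (348).

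The order of the 8 libraries was read for each gene with counting error alone (exact 95% Poisson intervals of the reads), since no condition was repeated. Rgs16 spanned 336-fold between its highest and lowest library, Rgs1 66.7-fold, Rgs2 30-fold and Cd69 28.8-fold. For Cd69 the 2 stimulated libraries overlapped each other, as did resting CD8 cells and both stimulated libraries with the drug at 711, 620.4 and 611. For Rgs16 resting CD8 cells (504) overlapped stimulated Th2 cells with the drug (479), as did the 2 resting libraries with the drug. No neighbours in the order overlapped for Rgs1 or Rgs2.

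With actinomycin D, stimulated and resting cells differed less. Cd69 stood at 611 normalised reads in stimulated and 240.2 in resting CD8 cells, and at 620.4 in stimulated and 149.9 in resting Th2 cells. Rgs16 stood at 353 and 55.1 in stimulated and resting CD8 cells, and at 479 and 72.7 in stimulated and resting Th2 cells. For both genes each stimulated library stayed above both resting ones, by 2.54-fold and 4.14-fold for Cd69 and by 6.40-fold and 6.59-fold for Rgs16 in CD8 and Th2 cells. Rgs1 stood at 1401 and 951 in stimulated and resting CD8 cells, and at 1995 and 721 in stimulated and resting Th2 cells. Rgs2 stood at 193 and 89.6 in stimulated and resting CD8 cells, and at 793 and 679.6 in stimulated and resting Th2 cells. Rgs1 thus differed 1.47-fold and 2.77-fold and Rgs2 2.15-fold and 1.17-fold in CD8 and Th2 cells, and for Rgs2 the cell types were further apart than the states.

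None of the 4 passed the test with the drug, where 0.0911% of genes were called (10 genes, all higher). The changes were 1.69 ± 0.21 for Cd69 (limma adjusted p = 0.0649), 1.01 ± 0.29 for Rgs1 (0.333), 0.66 ± 0.63 for Rgs2 (0.706) and 2.68 ± 0.46 for Rgs16 (0.129), in log2 units with SE. Of the 4, 3 had an unadjusted p under 0.05, and Rgs16 and Cd69 ranked 8 and 22 of 10972 genes by the size of the change. DESeq2 called 190 genes there, including Cd69 (adjusted p = 3.2e-09) and Rgs16 (8.66e-07), and edgeR called none of the 4. Without the stimulated CD8 or the stimulated Th2 library that had no drug, limma called Cd69 and Rgs16, and ribosomal scaling did too (1.95 and 2.94). With a cell type by actinomycin D term it called Rgs16 (2.68, limma adjusted p = 0.0164). In the 4 drug libraries fitted alone limma called all 4 among 2511 genes, with a spread taken from those libraries only.

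The interaction asked whether the stimulation change with actinomycin D differed from that without. It was -1.15 ± 0.29 for Cd69 (limma adjusted p = 0.0424), -1.99 ± 0.41 for Rgs1 (0.0257) and -2.89 ± 0.65 for Rgs16 (0.0311), in log2 units with SE. These 3 passed the test, where 7.44% of genes were called lower, 7.06% higher and 14.5% in either direction. For Rgs2 it was -2.82 ± 0.89 (limma adjusted p = 0.0733), which did not pass. The call for Cd69 was lost without 7 of the 8 libraries, taken 1 at a time (limma adjusted p up to 0.171), and those for Rgs1 and Rgs16 without 5 of the 8 (up to 0.0992 and 0.116), each of the 4 libraries with the drug among them. The call for Cd69 was also lost on scaling to ribosomal protein genes (-0.52, limma adjusted p = 0.241), which moved the median of all genes by 0.63. Rgs2 was called without the stimulated Th2 library that had no drug (-4.00, limma adjusted p = 0.00196) or the stimulated CD8 one (-1.63, limma adjusted p = 0.0414).

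**Figure D3:**
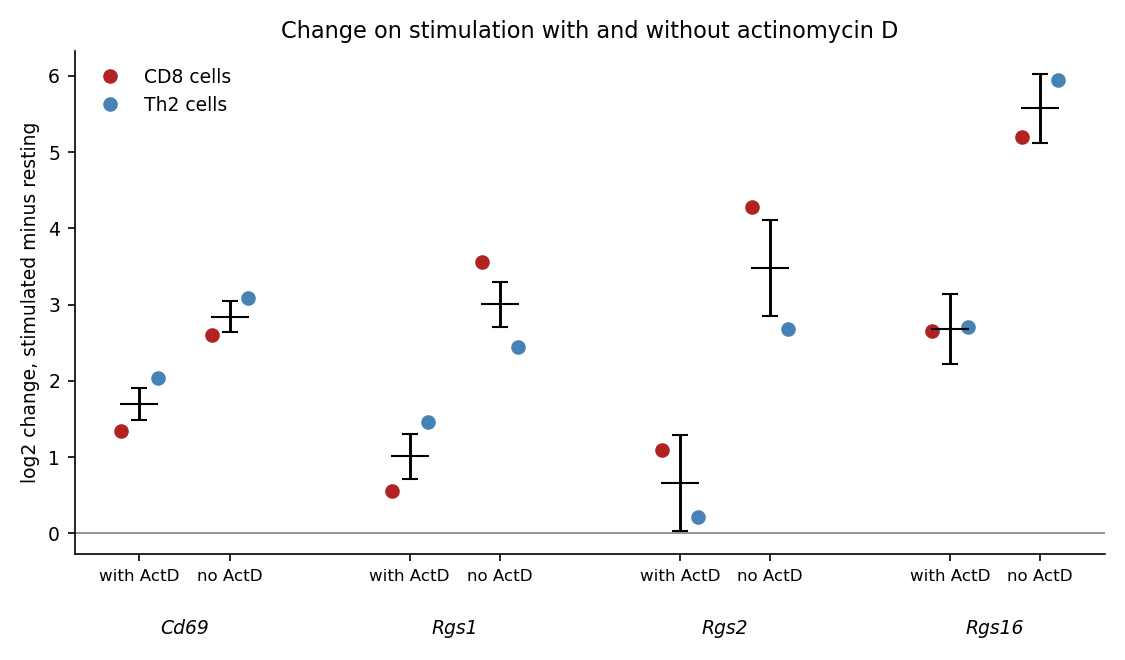
Log2 change on stimulation (stimulated minus resting, vertical axis) for the 4 genes with and without actinomycin D, with points for CD8 and Th2 cells and a bar for the limma mean ± SE. Every change is smaller with the drug, and Rgs16 keeps the largest one (2.68 ± 0.46).

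The level with actinomycin D was set against the untreated level in each state. In stimulated cells the level with the drug was 14.1% of the untreated one in CD8 and 14.5% in Th2 cells for Cd69, 2.91% and 5.24% for Rgs1, and 1.91% and 4.44% for Rgs16. For Rgs2 it was 7.17% in CD8 and 35.6% in Th2 cells. The median over all genes was 101% in CD8 and 99.2% in Th2 cells. The size factors hold the typical gene near an equal level in every library, so this median does not measure the effect of the drug on total RNA. All 4 genes were lower with the drug, with log2 changes of -2.80 ± 0.21 (Cd69, limma adjusted p = 0.00019), -4.68 ± 0.29 (Rgs1, 0.000139), -2.64 ± 0.63 (Rgs2, 0.0115) and -5.10 ± 0.46 (Rgs16, 0.000313). In that contrast 27.3% of genes were called lower and 50.8% in either direction. The call for Rgs2 was lost without either stimulated library with the drug (-3.00 and limma adjusted p = 0.0524 without Th2, -2.29 and 0.0975 without CD8). Its value was -1.46 without the stimulated CD8 library that had no drug. By the stated order of treatment these cells had been stimulated for 4 h before the drug, so the rise would have come first. The paper compared untreated with actinomycin D-treated mouse T cells as a measure of transcript instability. Loss of RNA already made was not tested apart from the later harvest or any difference in preparation.

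In resting cells the level with the drug was 33.8% in CD8 and 29.7% in Th2 cells for Cd69, 23.4% and 10.3% for Rgs1, and 10.9% and 41.8% for Rgs16. These 3 fell, with log2 changes of -1.65 ± 0.21 (Cd69, limma adjusted p = 0.00133), -2.69 ± 0.29 (Rgs1, 0.000914) and -2.21 ± 0.46 (Rgs16, 0.00736), where 25.3% of genes were called lower and 46.4% in either direction. The call for Rgs16 was lost without the resting CD8 library with the drug (-1.70, limma adjusted p = 0.0549), and its value was -1.43 without the untreated one. Rgs2 differed from the other 3: it was at 65% of the untreated level in CD8 cells and at 195% in Th2 cells, with a mean change of 0.17 ± 0.63 (limma adjusted p = 0.84). Scaled to ribosomal protein genes, which moved the median of all genes by -0.94 in resting and by -0.30 in stimulated cells, the changes of Cd69, Rgs1 and Rgs16 in resting cells were -2.59, -3.62 and -3.13, and Rgs2 changed sign (-0.76, limma adjusted p = 0.246).

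**Figure D4:**
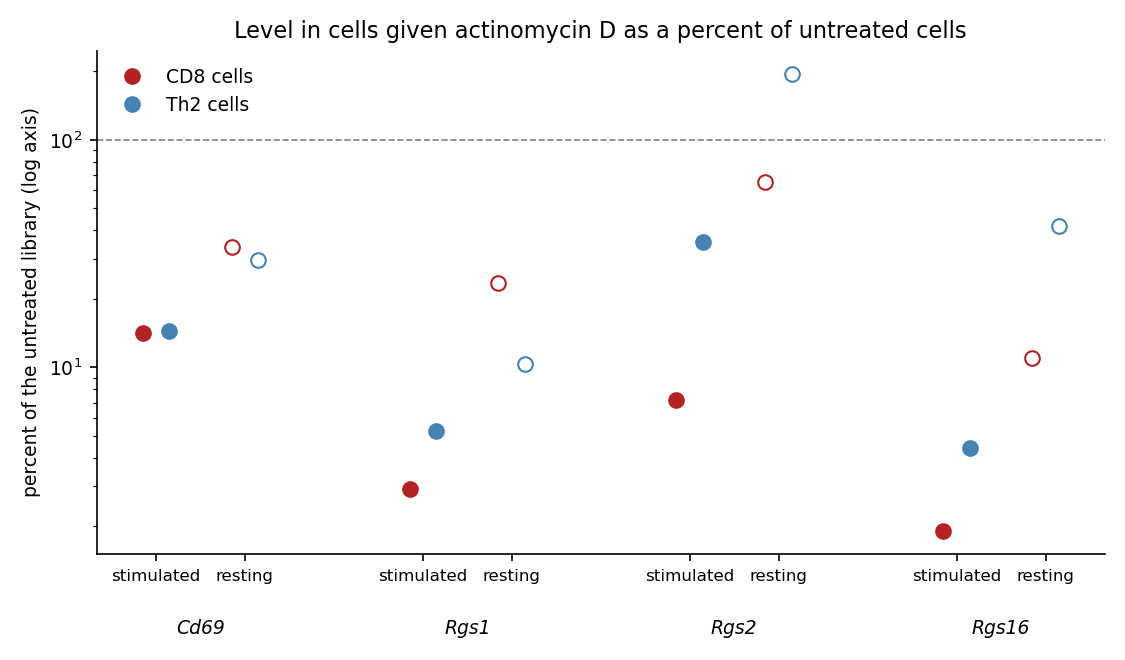
Level of each gene in cells given actinomycin D as a percent of the untreated library of the same cell type and state (log axis), filled for stimulated and open for resting cells, with a dashed line at equal levels. Rgs1 and Rgs16 in stimulated cells lie lowest (1.91 to 5.24%), and the only point above the line is Rgs2 in resting Th2 cells (195%).

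CD8 cells were then set against Th2 cells over the 4 matched conditions. Rgs2 was lower in CD8 cells, with a log2 difference of -1.5 ± 0.44 (SE; limma adjusted p = 0.0347), where 18.7% of genes were called lower and 36.8% in either direction. The ratio of CD8 to Th2 was 1.21 in stimulated and 0.396 in resting untreated cells, and 0.243 in stimulated and 0.132 in resting cells with the drug. CD8 cells were thus lower in 3 of the 4 conditions. The call was lost without any one of 6 libraries (limma adjusted p 0.0848 to 0.139, with changes of -1.56 to -1.03), and held without either stimulated library that had no drug (-2.09). Cd69 (0.29 ± 0.15, limma adjusted p = 0.162), Rgs1 (-0.14 ± 0.21, 0.627) and Rgs16 (0.37 ± 0.32, 0.403) were not called. In bulk RNA, fewer cells of a type and less RNA per cell cannot be told apart. B cell markers, which held 0.0118 to 0.0321% of reads in CD8 libraries and 0.0315 to 0.0494% in Th2 libraries, were lower in CD8 cells for 4 of the 4 genes tested (of 6), and their part in the Rgs2 difference was not tested.

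The other RGS genes did not share one direction on stimulation. Of 18 other RGS genes, 8 were abundant enough for the test, and without the drug 1 of these rose on stimulation, 2 fell and 5 were not called, where 28.1% of all genes were called. Their median change was -0.06 on the log2 scale, against 0.0338 over all genes. Rgs8 rose by 1.25 ± 0.25 (limma adjusted p = 0.0126) and stood at 809.6 normalised reads in stimulated and 312 in resting CD8 cells, and at 84.9 and 38.1 in stimulated and resting Th2 cells. Rgs12, a large scaffold member of the family, fell by 1.37 ± 0.21 (limma adjusted p = 0.00467), and stood at 104 in stimulated and 260.2 in resting CD8 cells and at 193 and 521 in stimulated and resting Th2 cells. Rgs14 fell by 0.87 ± 0.22 (limma adjusted p = 0.0257).

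The RGS genes that were not called on stimulation were Rgs10 (-0.25 ± 0.15), Rgs3 (1.10 ± 0.49), Rgs19 (0.08 ± 0.19), Rgs11 (-0.21 ± 0.18) and Rgs9 (0.93 ± 0.41), in log2 units with SE. Rgs3 stood at 7507 in stimulated and 2238 in resting CD8 cells, and at 1142 and 836 in stimulated and resting Th2 cells, with the wider gap in CD8 cells. Between cell types 7 of the 8 were called, 4 higher and 3 lower in CD8 cells, where 36.8% of all genes were called. Rgs8 was higher in CD8 cells by 2.85 and Rgs3 by 1.30, and Rgs9 and Rgs10 were lower by 2.01 and 1.96 (log2; limma adjusted p = 2.94e-05, 0.0237, 0.00172 and 1.42e-05). None of the 8 had a called interaction of stimulation with actinomycin D, where 14.5% of all genes were called. The other 10 had means of 3.1 normalised reads or less. Rgs6 and Rgs21 were at 0 in all 8 libraries, which does not show that they are absent.

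**Figure D5:**
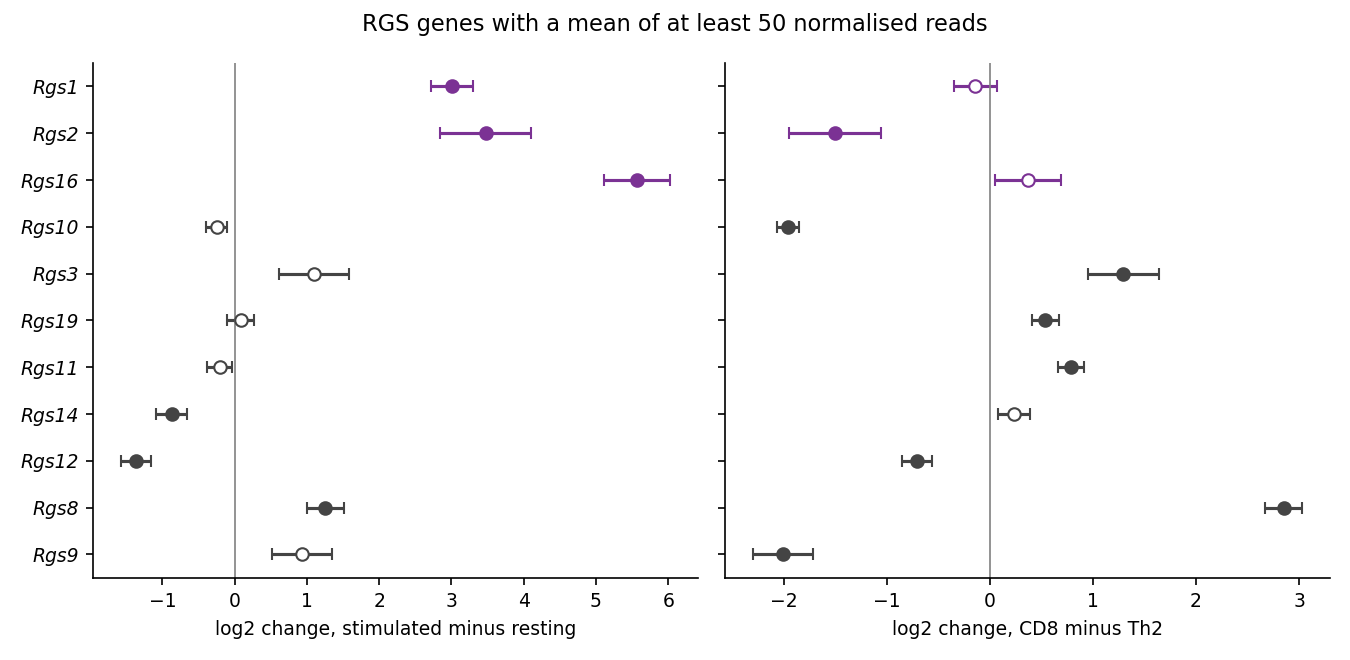
Log2 change of the RGS genes that averaged 50 normalised reads or more, stimulated minus resting without actinomycin D (left) and CD8 minus Th2 (right), as limma means with bars of 1 SE and filled points where called. Rgs1, Rgs2 and Rgs16 lie at 3.00 to 5.57 on stimulation, and no other RGS gene lies above 1.25.

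For the G protein machinery, counts are to be read against 28.1% of all genes called on stimulation without the drug. Of 10 G alpha genes tested, 0 rose and 1 fell. This was Gnal, a stimulatory G alpha subunit, with a change of -1.34 ± 0.28 (limma adjusted p = 0.0145). Of 7 G beta and gamma genes tested, Gnb2 rose by 0.66 ± 0.17 (limma adjusted p = 0.0301) and none fell. Of 5 receptor kinases and arrestins tested, Arrb1, which encodes an arrestin that uncouples receptors from G proteins, fell by 1.15 ± 0.21 (limma adjusted p = 0.00874). The median changes of these 3 lists were 0.05, 0.33 and 0.06 on the log2 scale.

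Of 8 genes of lymph node exit and homing tested, 1 rose and 3 fell on stimulation without the drug, where 14.7% of all genes were called higher and 13.4% lower. S1pr1, the exit receptor that CD69 protein holds back, stood at 274 in stimulated and 3288 in resting CD8 cells, and at 142 in stimulated and 2052 in resting Th2 cells. Both stimulated libraries lay below both resting ones, and the log2 change of S1pr1 was -3.71 ± 0.15 (SE), which passed the test (limma adjusted p = 9.98e-05). With actinomycin D it stood at 738 in stimulated and 769 in resting CD8 cells, and at 405 and 392 in stimulated and resting Th2 cells, and the interaction was called (3.71, limma adjusted p = 0.00121). Stimulated cells with the drug thus held more S1pr1 than stimulated cells without it, by 1.47 on the log2 scale (limma adjusted p = 0.000457). Ccr7, the homing receptor of lymph nodes, fell by 1.74 ± 0.27 (log2, SE; limma adjusted p = 0.00502). S1pr2, a receptor of the same family that restrains migration, rose by 1.21 ± 0.22 (limma adjusted p = 0.00944).

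Of 21 chemoattractant and other G protein-coupled receptors tested, 5 rose and 3 fell on stimulation without the drug, against 14.7% of all genes called higher and 13.4% lower. Ptger2, a prostaglandin E2 receptor, rose by 2.36 ± 0.22, Adora2a, an adenosine receptor, by 2.31 ± 0.35, and Gpr18 by 1.75 ± 0.20 (log2, SE; limma adjusted p = 0.00101, 0.00467 and 0.0019). Cxcr4, the receptor of the chemokine CXCL12, fell by 1.53 ± 0.37 (limma adjusted p = 0.022). Of 6 genes tested in the C-type lectin cluster around Cd69, none rose or fell at that threshold. The most abundant, Klrk1 and Klrd1, changed by -0.23 each on stimulation, and were higher in CD8 cells by 5.24 and 4.07 (log2; limma adjusted p = 1.91e-07 and 1.24e-06). Changes of the 6 on stimulation ran from -0.93 to 0.49 (log2), against 2.84 for Cd69. Where 28.1% of all genes were called in either direction, 0 of 6 is too small a count to read.

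As a scale for the induction, 9 of 11 early and cytokine genes rose, where 14.7% of all genes were called higher. Il2 rose by 7.94 ± 0.96, Ifng by 5.78 ± 0.64, Egr1 by 5.66 ± 0.33 and Egr2 by 5.23 ± 0.52 (log2, SE; limma adjusted p = 0.00235, 0.00178, 0.000267 and 0.00137), and the change of Rgs16 (5.57) lay between those of Egr1 and Egr2. For the interaction with actinomycin D, 7 of these 11 were called, all lower, as were Cd69, Rgs1 and Rgs16 of the 4 genes, where 7.44% of all genes were called lower. With the drug in resting cells 2 of the 11 were called higher, Egr1 (3.87) among them, and 2 lower. There 21% of all genes were called higher and 25.3% lower. Cd69, Rgs1 and Rgs16 were lower in that comparison, so their interaction and that of Egr1 differ in make-up.

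The genes whose pattern lay closest to each of the 4 were found by Pearson correlation of log2(value + 1) over the 8 libraries, among 7744 genes with a range of at least 1, as a description of points that share cell type, state and drug. Among the genes closest to Cd69 were Lamtor3 (0.987), Atp2a2 (0.984), Prkx and Rgs16 (0.982 each). Rgs1 lay closest to Zswim6 (0.987), Arhgef2 (0.986), Morf4l2, Ncoa2 and Enthd1. Rgs2 lay closest to Egr3 (0.985), Med13l (0.979), Arid3b (0.97), Ppp1r18 and Spp1. Rgs16 lay closest to Prkx (0.988), Cd69 (0.982), Bdp1, Icam1 and Rasa2 (0.979 each). Among the 4 themselves the coefficients were 0.92 to 0.98 between Cd69, Rgs1 and Rgs16, and 0.69 to 0.78 between Rgs2 and these 3.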

How the data were processed

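Th2 and CD8 cells were pooled from several mice per the study's methods. For RNA-seq the authors aligned reads with STAR to mm10 and deposited a table of normalised signal per gene. The methods describe FPKM, but every value was a whole multiple of 1 step per library within 0.01 read (100% of values), and the steps equal DESeq2's median-of-ratios factors, so the values are gene reads divided by a size factor. No source used here names the counting tool or its use of strand. For GCLiPP the authors aligned with Bowtie2 to mm10, removed duplicates, pooled experiments and called windows of 70 bases in 3′ UTRs, and the deposited peak list holds a score per peak.

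Groups came from the labels. limma 3.58.1 (R 4.3.3) with a mean-variance trend was fitted to log2(value + 1) of all 8 libraries. Its terms were cell type, stimulation, actinomycin D and stimulation by actinomycin D. In a second fit stimulation by cell type took the place of stimulation by actinomycin D. Genes that averaged 50 or more were tested (10972 of 43432), with Benjamini-Hochberg adjustment over all of them. The script was tested on simulated data. Alternatives were pseudocounts, minimum means, scalings, an added term, edgeR 4.0.16 and DESeq2 1.42.0 on the recovered reads, subsets of libraries and leaving out each library. 3′ UTRs and sequences came from GENCODE M21 (GRCm38, the assembly of mm10).

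The 4 genes, the gene lists and the tests were chosen with earlier results of these data known. Named genes were the 4, RGS genes with a mean of at least 50, and of every other list the up to 4 called genes with the largest stimulation change, or the 2 most abundant where none was called; 2 genes that these rules and the correlations name are not reported here. Intervals cover counting error only. A second gene table, which repeats these values beside the authors' own fold changes between libraries, was not used.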

Additional observations from a re-analysis of the deposited data

Results flagged for a closer look

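The change on stimulation differed with actinomycin D, by the interaction of the limma fit, for Cd69 (-1.15), Rgs1 (-1.99) and Rgs16 (-2.89), in log2 units. It differed in the same direction for Gnb2 (-1.10), Ptger2 (-2.38), Adora2a (-2.38), Gpr18 (-1.31), Il2 (-7.59), Ifng (-3.50), Egr1 (-4.64) and Egr2 (-2.73), and in the other direction for S1pr1 (3.71) and Ccr7 (1.54). Each had a limma adjusted p under 0.05.

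In resting cells Rgs2 was higher with actinomycin D than without in Th2 cells (log2 change 0.96) and lower in CD8 cells (-0.62). The difference between the cell types rests on 1 pair of libraries each and was not tested.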

How the results depend on the processing

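Of 540 values of the 4 genes under alternative settings, 473 kept their direction and their side of the threshold, 32 lost and 17 gained the call, and 18 changed sign. Median-of-ratios scaling, 1 of these settings and of the 11 below, returns the deposited values, so its results were fixed in advance. The causes were not tested. The called changes of Cd69, Rgs1 and Rgs16 on stimulation without the drug were called in all 11 settings that kept every library, in the untreated libraries alone and without any one library. For Rgs2 the call was lost without either untreated resting library (2.29 to 4.66 over all left out). The interaction of Cd69 was not called with no minimum mean (-1.15, limma adjusted p = 0.0692), quantile normalisation (-1.07), TMM scaling (-1.06) or ribosomal protein scaling (-0.52), and ran from -1.41 to -0.89 without 1 library. Rgs2 was called for it with a cell type by actinomycin D term (-2.82, limma adjusted p = 0.021) and by DESeq2 (-3.22), and ran from -4.00 to -1.63, Rgs1 from -2.42 to -1.56 and Rgs16 from -3.67 to -2.12. Rgs2 with the drug in resting cells was -0.76 on ribosomal scaling. Rgs16 in the stimulation by cell type fit, -0.40 in limma, was 0.20 in edgeR and 0.30 in DESeq2. All other changes of sign were of values that were not called and came on leaving out a library. Over these, Rgs2 ran from -0.28 to 1.60 for stimulation with the drug and from -0.77 to 1.11 for the drug in resting cells, Rgs1 from -0.32 to 0.075 and Rgs16 from -0.018 to 0.64 between cell types, and Rgs1 from -0.95 to 1.16, Rgs2 from -0.47 to 2.95 and Rgs16 from -2.01 to 1.21 in the stimulation by cell type fit.

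Genes called for stimulation with the drug were 10, against 4 with no minimum mean, 2 by quantile normalisation, 129 by ribosomal scaling, 23 with the added term, 190 by DESeq2, 2511 in the 4 drug libraries alone and 0 to 109 without 1 library. For the interaction they were 1591, against 940 with no minimum mean, 4522 by ribosomal scaling, 2698 with the added term, 2506 by DESeq2 and 25 to 3312 without 1 library. Stimulation without the drug gave 3088, against 1238 in the 4 untreated libraries alone and 787 to 4094 without 1 library. The drug in resting cells gave 5086, against 7936 by ribosomal scaling and 2090 to 6326 without 1 library, the drug in stimulated cells 5574, against 3313 to 5896, and CD8 against Th2 cells 4037, against 2400 to 4724. Scaling moved the split of higher and lower calls: by ribosomal scaling it was 692 and 3603 for stimulation (1616 and 1472 as deposited), 4221 and 301 for the interaction (775 and 816), 91 and 7845 for the drug in resting cells (2305 and 2781) and 1237 and 4111 in stimulated cells (2584 and 2990). Quantile normalisation gave 1239 and 1745 for stimulation and 3423 and 2408 for the drug in stimulated cells, and TMM 972 and 612 for the interaction. Of the 31 peaks, 20 scored above the median of 24.

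No paired analysis was possible because the RNA-seq libraries carry no replicate numbers and the GCLiPP peak list has no values per library. With 1 library per condition, the spread behind each p-value also holds any difference between the cell types.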
